A study of Mus musculus with 4 samples.

Results

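The secreted Wnt antagonists are extracellular proteins that keep Wnt ligands from signalling. They were taken here as the 10 gene symbols Sfrp1, Sfrp2, Frzb, Sfrp4, Sfrp5, Dkk1, Dkk2, Dkk3, Dkk4 and Wif1, and all 10 were found among the 25239 gene symbols of the deposited count table. RNA was sequenced from sorted hindlimb bud cells of FVB mouse embryos at embryonic day 11.5, with the genotype labelled wild-type. All embryos carried the reporter hsp68-hZRS(404G>A)-mCherry at the H11 locus, in which a human copy of the ZRS, the limb enhancer of Shh, bears the 404G>A change and drives the red fluorescent protein mCherry. The groups were anterior cells sorted as mCherry positive and central cells sorted as mCherry negative, with 2 libraries each. Both groups carry the transgene, and the mCherry gate differs along with the dissected domain, so position and reporter activity cannot be told apart. The labels do not say how many embryos went into a library or whether replicates came from separate litters, so p-values measure only the spread between these libraries, which may be technical.

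Wnt ligands bind Frizzled receptors together with the co-receptors Lrp5 and Lrp6, and in the canonical branch this stabilises beta-catenin, which acts with TCF/LEF factors on target genes. The Sfrp proteins and Frzb carry a cysteine-rich domain like that of the Frizzled receptors and bind Wnt ligands directly, as Wif1 does through a domain of its own. The Dkk proteins work at another step: Dkk1 binds Lrp5 and Lrp6 and, with Kremen proteins, takes them out of play. In the limb bud, Wnt signals from the ectoderm keep the outer mesenchyme undifferentiated, and loss of Dkk1 in the mouse gives extra and fused digits.

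Promoter sequences from RefSeq (GRCm38.p6) were matched for 6 of the 10 genes (Sfrp2, Frzb, Sfrp5, Dkk1, Dkk2 and Wif1), each as 250 bases before and 50 after the start site. They were searched on both strands for CTTTGA and CTTTGT, which are cores of the TCF/LEF motif, for GGCGCC, a sequence bound by Smad proteins of the BMP pathway, and for TATAAA. Short stretches are shown for Dkk1 and Frzb, the genes that were higher in anterior cells, and the promoter of Dkk2, which was lower, stands beside them up to the longest RefSeq gene model, which begins 26 bases before the start site used for positions here. Capitals mark the motif matches, which on the opposite strand read TCAAAG for CTTTGA. The Dkk1 and Frzb stretches lie before the RefSeq start site. All of them fall within the untranslated part of the first exon in the longer GENCODE gene model, except that the first Dkk1 stretch runs across the start of that exon.
Dkk1 site 1 (chr19:30549653-30549682, minus strand): gaggggagagtgTCAAAGtcctccctgctt
Dkk1 sites 2 and 3 (chr19:30549586-30549615, minus strand): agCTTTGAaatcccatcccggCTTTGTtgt
Frzb site (chr2:80447474-80447503, minus strand): tcccctgaaaacTCAAAGccttctcggaag
Dkk2 promoter (chr3:132085042-132085265, plus strand): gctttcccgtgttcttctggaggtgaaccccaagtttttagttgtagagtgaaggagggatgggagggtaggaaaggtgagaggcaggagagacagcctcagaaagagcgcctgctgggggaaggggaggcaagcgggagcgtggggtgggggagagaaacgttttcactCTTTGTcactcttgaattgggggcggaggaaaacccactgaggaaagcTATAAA
The Dkk1 promoter held 3 TCF/LEF cores, at 174, 117 and 98 bases before the start site, whereas Frzb and Dkk2 held 1 each, at 95 and 80 bases. Sfrp2, Sfrp5 and Wif1 held none. At least 1 such core was thus present in 3 of the 6 promoters, against 31.2% of the 32851 RefSeq promoters of this length. A number of 3 or more was found in 1 of the 6 and in 1.14% of all. TATAAA, found in 13.6% of all promoters, lay 54 bases before the start site in Dkk1 and 32 bases before it in Dkk2, and on the opposite strand 232 bases before it in Wif1. The TATAAA of Dkk1 lies inside the longer GENCODE gene model, downstream of its start. GGCGCC, found in 11.9% of all promoters, was in none of the 6. These matches describe letters in the windows and say nothing of binding.

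Across the group, antagonists of the same family went in opposite directions between the populations. Dkk1 and Frzb were higher in anterior cells, Sfrp1, Sfrp2 and Dkk2 were lower, and Dkk3 and Wif1 were not called. The test was edgeR's quasi-likelihood test over all genes, with a call at a Benjamini-Hochberg adjusted p-value under 0.05. Of the 10 genes, 7 passed the filter on low counts, and Sfrp4, Sfrp5 and Dkk4 did not. Of the 7, 5 were called, where 22.9% of the 14610 genes tested were called. Of these, 2 were higher in anterior cells (10.7% of all genes) and 3 were lower (12.3%). The median absolute log2 fold change was 1.31 over the 7 genes and 0.222 over all genes tested. The level in CPM (counts per 1 M of the TMM-scaled library total) did not overlap between the populations for 6 of the 7 genes, as for 63.5% of all genes. In bulk samples like these, fewer cells of a type and less RNA per cell cannot be told apart.

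The labelled tissue was checked against markers. Of 9 limb mesenchyme genes, the general marker Prrx1 and the hindlimb genes Pitx1 and Tbx4 were not called, each with at least 6968 counts in every library. In that list Prrx2, Twist1, Msx1 and Msx2 were higher in anterior cells (log2 fold changes 1.91, 0.83, 3.26 and 2.80) and Pdgfra and Hand2 were lower (-1.18 and -0.78), with the list summing to 2974 and 2863 CPM against 2766 and 2605. Genes of several other cell types differed between the populations along with the antagonists. Of 8 tested tendon and connective tissue genes, 7 were lower in anterior cells, and the list summed to 648 and 556 CPM against 1849 and 1675. Of 8 tested cartilage genes, 5 were lower (425 and 311 CPM against 1530 and 1214), with Matn1 at 0 in both anterior libraries. All 7 muscle precursor genes were lower (4.17 and 2.35 CPM against 142.9 and 142.2), with Pax7 and Myog at 0 in anterior cells, as were 6 of 9 endothelial genes (9.92 and 12.5 CPM against 37.0 and 44.2). Ectoderm genes were lower in 8 of 10 cases, although 1, Tfap2c, was higher and the sums overlapped (61.9 and 76.1 CPM against 58.7 and 181.2). Tfap2c alone made up most of the anterior sums, at 51.7 and 65.8 CPM against 7.11 and 10.7. In limma-voom 5 of those 8 were not called. Of 6 joint genes, 1 was higher and 2 were lower, and of 5 tested Schwann cell and neural crest genes 2 were lower, with Sox10 and Foxd3 at 0 in anterior cells. Blood genes were higher in 9 of 12, at 3306 and 8409 CPM against 11.7 and 14.6. The globin gene Hbb-y alone held 1942 and 4867 CPM of the anterior sums, and Ptprc, Tyrobp and Fcer1g were not called. The same 5 antagonists were called with the blood list removed from the fit. That removal leaves the antagonist counts as they were, so it cannot show what part blood RNA had in them.

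Position along the limb also moved with the antagonists. Of 6 distal limb genes, 5 were higher in anterior cells together with Dkk1 and Frzb, and the list summed to 2432 and 2208 CPM against 863 and 738. Of 5 proximal genes, 3 were lower, namely Meis1, Meis2 and Shox2 (log2 fold changes -4.46, -4.27 and -2.74). Hoxa9 was higher, though not without anterior replicate 2, and Hoxa11 was not called. The list summed to 357 and 381 CPM against 906 and 913, with Hoxa9 and Hoxa11 making up most of the anterior sums. The part of these cell types and positions in the antagonist levels was not tested.

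Sfrp1, on chromosome 8 (chr8:23411502-23449632 in GRCm38), had the smallest adjusted p-value of the group. Counts were 908 and 714 in anterior libraries, against 3822 and 3522 in central libraries. Both anterior values lay far below both central ones, and replicates were close to each other. The level was 25.8 ± 2.04 CPM for anterior and 117 ± 10.8 CPM for central cells (SD over 2 libraries, n = 2 each). Sfrp1 was thus 4.51-fold lower in anterior cells, with a 95% interval of 3.86 to 5.28 (log2 fold change -2.17, SE 0.10, and adjusted p-value 3.34e-06 in edgeR).

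Sfrp2, a close relative of Sfrp1 that can stand in for it in the mouse embryo, lies on chromosome 3 (chr3:83766321-83774316). Anterior libraries held 2201 and 1836 counts of it, and central libraries held 5905 and 4103. The anterior libraries were both below the central ones, but the central replicates differed from each other by 1.51-fold in CPM. The level was 64.3 ± 2.41 CPM for anterior and 159 ± 46.0 CPM for central cells (SD, n = 2), which is 2.48-fold lower in anterior cells with an interval of 1.92 to 3.20 (log2 fold change -1.31, SE 0.16, and adjusted p-value 0.000702 in edgeR). GENCODE annotates an antisense gene, Gm26771, that shares 347 exon bases with Sfrp2. Whether the counting used strand is not given in the sources used here, so reads in those bases may be misassigned or left out. No other antagonist gene overlaps an annotated gene.

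Frzb, also called Sfrp3 and known for its expression in cartilage precursors, lies on chromosome 2 (chr2:80411970-80447625) and went the other way. Counts were 6175 and 6024 in anterior libraries, against 4331 and 4572 in central libraries. The groups did not overlap, and the difference was small. The level was 195 ± 14.3 CPM for anterior and 141 ± 0.43 CPM for central cells (SD, n = 2). Frzb was 1.39-fold higher in anterior cells with an interval of 1.24 to 1.55 (log2 fold change 0.47, SE 0.07, and adjusted p-value 0.00201 in edgeR). When the test asked for a change beyond 1.5-fold, which 7.08% of all genes passed, Frzb was not called, and Sfrp1, Sfrp2, Dkk1 and Dkk2 were.

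Dkk1, the Lrp5 and Lrp6 antagonist, lies on chromosome 19 (chr19:30545863-30549665). Anterior libraries held 574 and 565 counts of it, and central libraries held 116 and 148. Both anterior libraries were well above both central ones. The level was 18.2 ± 1.45 CPM for anterior and 4.17 ± 0.57 CPM for central cells (SD, n = 2), 4.37-fold higher in anterior cells with an interval of 3.29 to 5.80 (log2 fold change 2.13, SE 0.18, and adjusted p-value 7.68e-05 in edgeR). Among all genes tested, 1.10% were called higher by over 4-fold.

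Dkk2, which can inhibit or activate Lrp6 depending on the partners present, lies on chromosome 3 (chr3:132085292-132180304). It reached 102 and 57 counts in anterior libraries, against 473 and 335 in central libraries. The direction was opposite to that of Dkk1, with both anterior libraries below both central ones. Its level was 2.50 ± 0.79 CPM against 12.9 ± 3.54 (SD, n = 2), 5.11-fold lower in anterior cells with a wide interval of 3.23 to 8.08 (log2 fold change -2.35, SE 0.29, and adjusted p-value 0.000675 in edgeR). Sfrp1 and Dkk2 were both called lower by over 4-fold, as were 3.99% of all genes.

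Dkk3, a divergent family member that is not a typical Lrp6 antagonist, lies on chromosome 7 (chr7:112116017-112159057). It reached 310 and 295 counts in anterior libraries, against 378 and 312 in central libraries, and the groups overlapped in CPM. The log2 fold change was -0.18, with an interval of -0.60 to 0.24 (edgeR adjusted p-value 0.538). Without central replicate 1 it was 0.0050.

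Wif1, on chromosome 10 (chr10:121033960-121100650), reached 1298 and 746 counts in anterior libraries, against 1366 and 1341 in central libraries. The anterior replicates differed by 1.53-fold in CPM, and without the lower of them, replicate 2, the log2 fold change was -0.14. Levels were 32.2 ± 9.54 and 42.9 ± 2.07 CPM (SD, n = 2). The log2 fold change of -0.41 had an interval of -0.80 to -0.02, and the gene was not called (edgeR adjusted p-value 0.123). It was called lower when anterior replicate 1 was left out (log2 fold change -0.75, and adjusted p-value 0.00246 in edgeR) and when no filter on low counts was used (edgeR adjusted p-value 0.0350). Over all alternatives its adjusted p-value ran from 0.00246 to 0.563.

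The remaining antagonists were at or close to the detection limit. Sfrp4 reached 4 and 0 counts in anterior libraries, against 8 and 6 in central libraries. Sfrp5 had 8 and 0 against 2 and 2, and Dkk4 had 2 and 0 against 0 and 2. A count of 3 corresponded to 0.0902 to 0.0997 CPM, so a library with 0 counts allows a level of up to about that, counting error only. Low counts were mostly even, and if each fragment was counted through both mates the limit is 6 counts, or 0.180 to 0.205 CPM. Differences in these genes were not detectable at this depth.

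**Figure D1:**
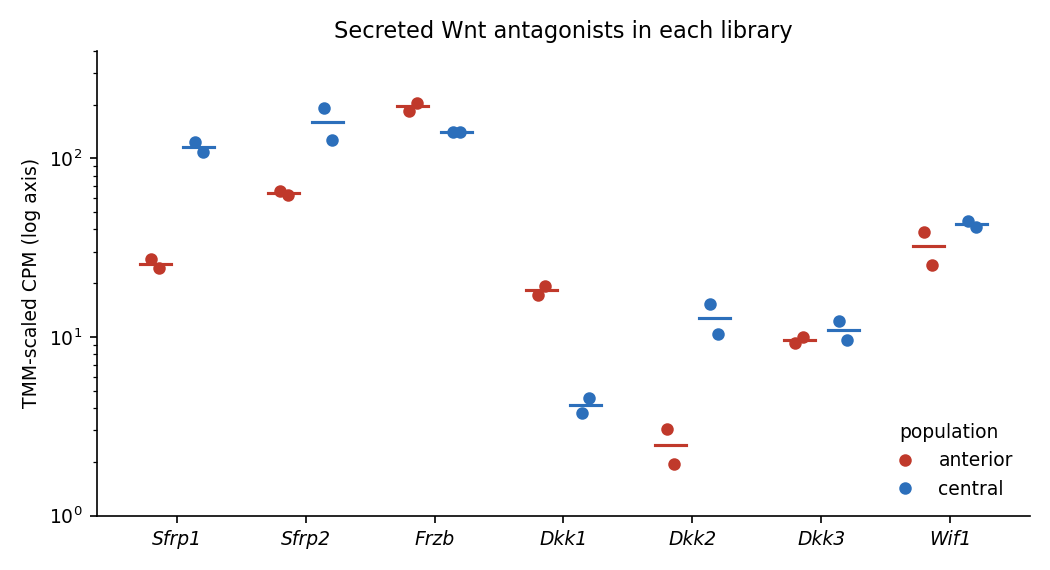
TMM-scaled CPM on a log axis for the 7 tested antagonists, with a point for each library and a line at each group mean (anterior red, central blue). Sfrp1, Sfrp2 and Dkk2 are lower in both anterior libraries, Dkk1 and Frzb are higher, and the Dkk3 values overlap.

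**Figure D2:**
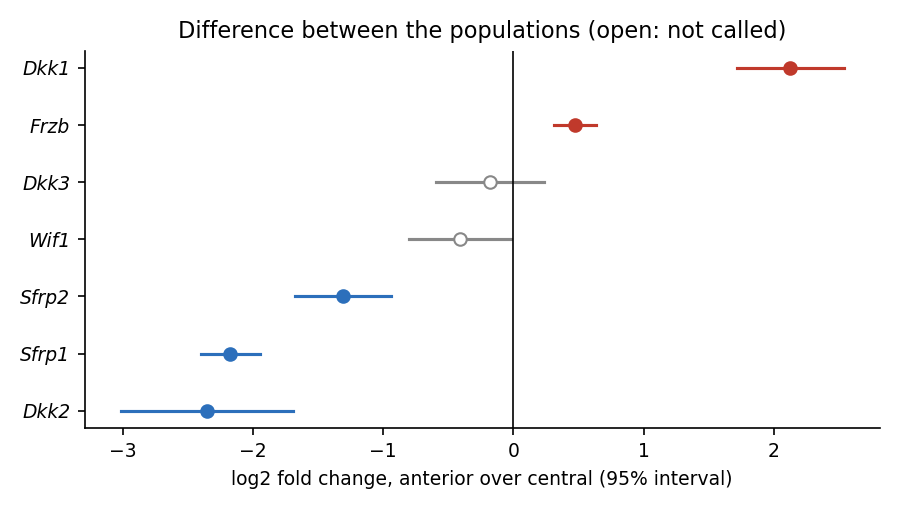
Log2 fold change of anterior over central cells for the 7 tested antagonists, with 95% intervals from the edgeR fit. Filled points passed the test at 0.05 after adjustment, and open points (Dkk3 and Wif1) did not.

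To set levels of different genes side by side, CPM was divided by the merged exon length in kilobases (RPKM, GENCODE M21). In anterior cells the order was Frzb at 60.3 ± 4.41 RPKM, Sfrp2 at 29.9 ± 1.12, Wif1 at 13.3 ± 3.93, Dkk1 at 7.51 ± 0.60, Sfrp1 at 5.90 ± 0.47, Dkk3 at 2.88 ± 0.16 and Dkk2 at 0.67 ± 0.21 (SD, n = 2). No neighbours among these 7 overlapped between libraries. In central cells Sfrp2 came first at 74.0 ± 21.3 RPKM, followed by Frzb at 43.5 ± 0.13, Sfrp1 at 26.6 ± 2.47, Wif1 at 17.7 ± 0.85, Dkk2 at 3.47 ± 0.96, Dkk3 at 3.26 ± 0.55 and Dkk1 at 1.72 ± 0.23. There, Dkk2 and Dkk3 overlapped and did not differ beyond their spread. Frzb stood above 95.3% of tested genes in anterior cells by this measure, and Sfrp2 above 96.7% in central cells. Sfrp1 was at place 3 in central and place 5 in anterior cells, and Dkk1 at place 7 in central and place 4 in anterior cells.

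The make-up of the whole set shifted accordingly, as a description of the values above. The summed level was 121.0 and 120.0 RPKM in the anterior libraries, against 188.6 and 152.1 for central cells. Frzb supplied 47.3% and 52.9% of that sum in the anterior libraries, against 23.0% and 28.7% for central cells. Sfrp1 supplied 5.15% and 4.64% against 15.1% and 16.4%. Within the Dkk family, Dkk1 held 66.1% and 69.3% of the Dkk sum in anterior libraries and 16.6% and 24.8% in central ones, while Dkk2 held 7.69% and 4.58% against 44.3% and 36.8%. The ratio of Dkk1 to Dkk2 was 8.59 and 15.1 in anterior cells and 0.374 and 0.674 in central cells. The Dkk sum itself differed less, at 10.7 and 11.5 RPKM against 9.35 and 7.59. The Sfrp and Frzb sum was 94.2 and 98.1 RPKM against 161.0 and 127.5. In each of these quantities the groups did not overlap, and an exact two-sided permutation test over 2 and 2 libraries gave p = 0.333, the smallest it can give.

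**Figure D3:**
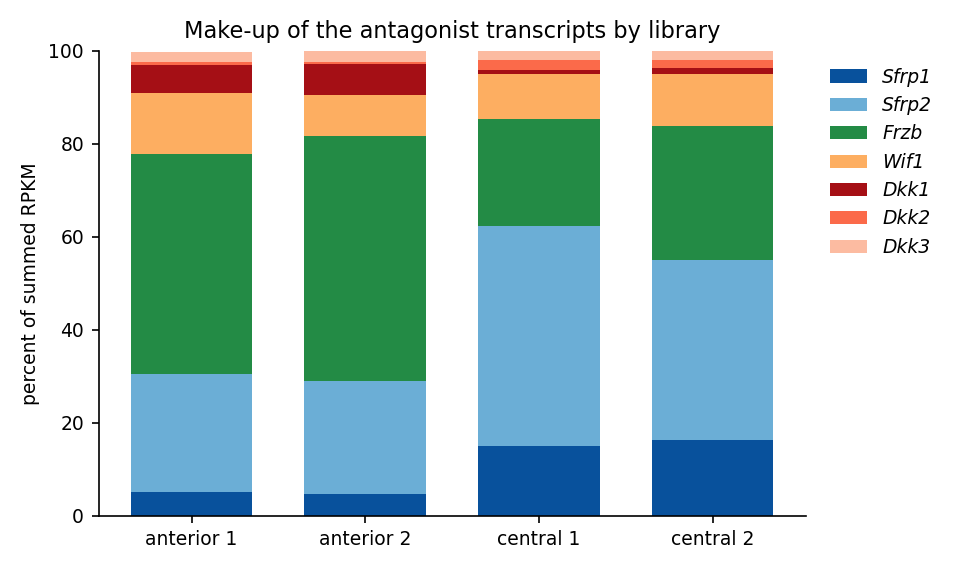
Percent of the summed RPKM of the antagonists that each of the 7 tested genes supplied, as stacked bars for each library. Frzb takes 47.3% and 52.9% of the anterior bars and Sfrp2 47.2% and 38.7% of the central bars, and Dkk1 takes more than Dkk2 in the anterior bars and less in the central ones.

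The proteins that these antagonists act on were examined by role, in lists chosen with earlier results of these data known. Of the 10 Frizzled receptors, 3 were called higher in anterior cells, 3 lower and 4 were not called (median log2 fold change -0.08, against -0.01 over all genes). Fzd10 was higher at 141 ± 0.36 against 36.0 ± 1.35 CPM (SD, n = 2; log2 fold change 1.97 ± 0.07 SE), with Fzd3 and Fzd4 at 0.39 and 0.38 on the log2 scale, 2 calls that were lost in some alternatives (without anterior replicate 2, at 0.35 and 0.34). Fzd6, Fzd8 and Fzd2 were lower, at -2.63, -1.18 and -0.70. Summed over the family, the Frizzled level was 183.2 and 178.2 RPKM in the anterior libraries, against 187.7 and 196.5 for central cells. The Sfrp and Frzb sum per Frizzled sum was 0.514 and 0.550 in anterior cells and 0.858 and 0.649 in central cells.

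Among the partners of the Dkk proteins, Lrp5 and Lrp6, the co-receptors that Dkk1 binds, were not called, with log2 fold changes of -0.05 and 0.03 (edgeR adjusted p-values 0.696 and 0.767). Kremen1 and Kremen2, the transmembrane proteins that act with Dkk1, were both called lower in anterior cells. Kremen1 measured 28.0 ± 2.72 against 41.1 ± 5.63 CPM (SD, n = 2; log2 fold change -0.55, and adjusted p-value 0.0128 in edgeR), a call that was lost without anterior replicate 2 (edgeR adjusted p-value 0.0678). Kremen2 reached 4 and 2 counts in anterior libraries, against 129 and 296 in central libraries. Of the 6 co-receptors and alternative Wnt receptors, Ptk7 was higher (0.54 on the log2 scale) and Ror1 and Ror2 were lower (-3.64 and -0.63).

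Among the 19 Wnt ligands, 14 were tested, 1 was called higher and 11 lower in anterior cells (median log2 fold change -3.42, or -3.03 with the 5 genes at or under 3 counts in both anterior libraries set to that floor and -2.95 with the 7 genes at or under 6 counts set to that one). Of the 11 lower calls, 8 held in every alternative that tested them, the 1.5-fold test aside, and Wnt3, Wnt4 and Wnt9b were lost in some, with log2 fold changes of -1.03, -1.75 and -2.17 without central replicate 2. The one that rose was Wnt5a, a ligand of the non-canonical branch in the distal limb bud, at 680 ± 51.9 against 259 ± 7.29 CPM (SD, n = 2; log2 fold change 1.40, SE 0.07, and adjusted p-value 5.87e-06 in edgeR). Summed over the 19 ligands, the level was higher in anterior libraries, at 103.6 and 93.9 RPKM against 60.3 and 68.7 for central cells. Wnt5a alone had a mean of 86.9 RPKM in anterior and 33.1 in central cells. The ectodermal ligands Wnt6 and Wnt7b had at most 3 counts in any anterior library. In the central libraries Wnt6 had 158 and 639 counts and Wnt7b had 92 and 322, so central replicate 2 was higher for both. Wnt10a was at 0 in anterior cells, with 16 and 26 counts in central libraries. Of the 10 ectoderm markers, 8 were also lower, such as Krt5 at 8 and 4 counts against 301 and 1346. In limma-voom 5 of these 8, Krt5 among them, were not called. Tfap2c was higher (log2 fold change 2.72) and Krt8 was not called. The sums of the list overlapped, with Tfap2c making up most of the anterior ones. The part of ectoderm RNA in the ligand result was not tested.

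R-spondins, which strengthen Wnt signals through Lgr receptors, and the genes of that axis were lower in 7 of 9 cases and higher in 1 (median log2 fold change -1.15, also with Rspo1 at its floor). Of the 7 lower calls, 4 held in every alternative that tested them, the 1.5-fold test aside, and those of Lgr5, Lgr6 and Rnf43 were lost in some. Rspo2 measured 1.59 ± 0.13 against 18.2 ± 4.22 CPM (SD, n = 2; log2 fold change -3.51 ± 0.24 SE), Rspo1 had 1 and 0 counts against 29 and 24, and Rnf43, a ligase that removes Frizzled receptors, had 7 and 7 counts against 16 and 81, with a log2 fold change of -1.20 without central replicate 2. Rspo4 was the member that rose, at 14.2 ± 3.84 against 3.25 ± 0.45 CPM (SD, n = 2; log2 fold change 2.13 ± 0.24 SE). Of 10 further extracellular or membrane inhibitors, 9 were tested, of which 3 were higher, 3 lower and 3 not called. Tpbg, Draxin and Apcdd1 were higher (0.79, 0.78 and 0.54 on the log2 scale), although Apcdd1 was not called without anterior replicate 1. Sostdc1, an Lrp-binding antagonist, and Igfbp4 were lower (-4.41 and -0.59), and Sost had 0 and 2 counts against 44 and 273. Of the 2 genes needed for Wnt secretion, Wls was higher (0.31), a call lost without either anterior library, and Porcn was not called.

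Genes that respond to beta-catenin were also listed, among them feedback regulators such as Axin2 and Nkd1 that dampen the signal. Of the 9 listed targets, 5 were called higher, 2 lower and 2 were not called (median log2 fold change 0.53). Lef1 stood at 182 ± 12.9 against 68.7 ± 0.65 CPM (SD, n = 2), higher by 1.40 ± 0.07 (SE) on the log2 scale. Tcf7 and Nkd2 were higher by 1.32 and 0.86 on the log2 scale, and Axin2, singled out after its values were seen, by 0.64 (131 ± 11.5 against 83.7 ± 1.05 CPM). Sp5 and Rnf43 were lower, at -1.02 and -2.74, but both calls were lost in limma-voom and without either anterior library or central replicate 2 (-0.78 and -1.20 without the latter), whereas the 5 higher calls held in every alternative that tested them, the 1.5-fold test aside. Of 14 genes for intracellular parts of the pathway, 12 were not called and 2 were lower, where 12.3% of all genes tested were called lower. Of these 2, Dvl1 was not called without either anterior library (log2 fold changes -0.36 and -0.33). Of the 6 glypicans, heparan sulphate proteoglycans that hold Wnt ligands at the cell surface, 4 were lower and 2 were not called (median log2 fold change -0.69), and the call of Gpc2 was lost in some alternatives.

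**Figure D4:**
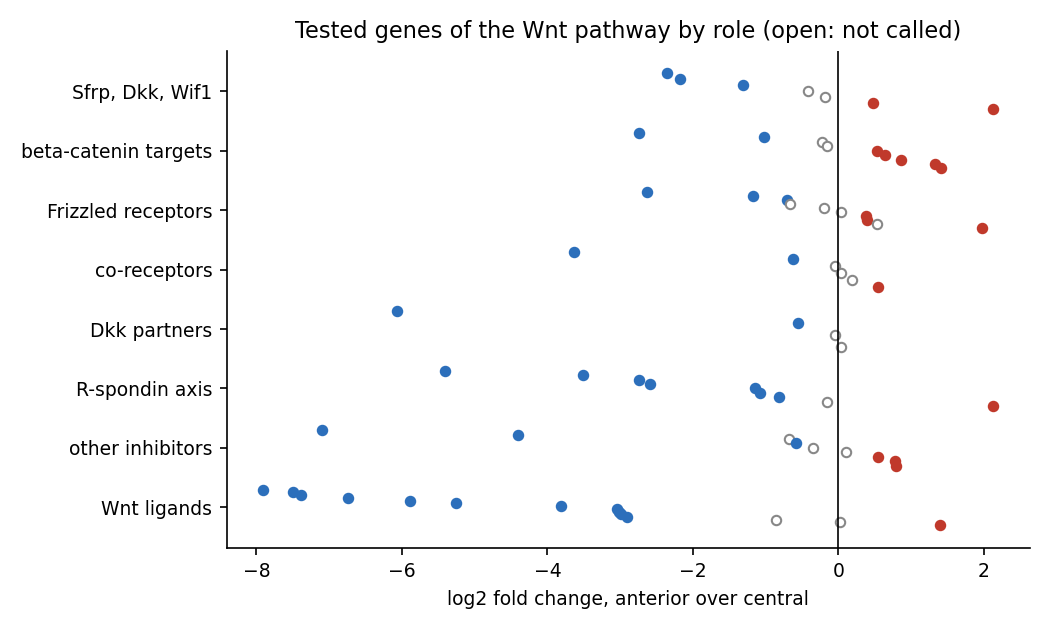
Log2 fold change of anterior over central cells for every tested gene of each list, 1 point per gene, with the 7 antagonists in the top row. Filled points were called (red higher, blue lower in anterior cells) and open points were not. Fitted values of genes near 0 counts in anterior cells, such as Wnt6, Wnt7b and Wnt10a, are not bounds on the true difference.

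The genes with the pattern most like each antagonist were found by the root mean square distance of log2 CPM, centred per gene, over the 4 libraries among 10605 genes with a mean of at least 5 CPM. For Dkk1 they were Spry4, a feedback inhibitor of FGF signalling, Dgkk and Fzd10, at distances of 0.0658, 0.0715 and 0.121. For Dkk2 they were Sema3d, a secreted guidance protein, Dnm3 and Ssc5d, at 0.0511, 0.132 and 0.143. For Sfrp1 they were Myl9, Pou6f1 and Lhfp (0.0784, 0.0847 and 0.0993), and for Sfrp2 they were Clec14a, Tpm2 and Tle2 (0.0607, 0.0916 and 0.0964). The patterns of Frzb and Dkk3 were common ones, with 666 and 625 genes within a distance of 0.1, and 29 genes lay that close to Wif1. Over 4 libraries such likeness is a description only.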

How the data were processed

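The deposited table holds raw read counts per gene symbol as the authors made them, with totals of 30080925 to 33257383 per library. STAR 2.7.9a, HTSeq and DESeq2 3.16 and the build mm10 are named in the submitters' processing notes, and strandedness is not given in the sources used here. Even numbers made up 72.8% to 75.6% of counts from 1 to 10, so halved counts were fitted as an alternative. The fit used edgeR 4.0.16 (R 4.3.3): filterByExpr (14610 genes kept), TMM scaling, and the quasi-likelihood test of anterior against central with Benjamini-Hochberg adjustment over all genes, leaving 2 residual degrees of freedom. SE is the absolute log2 fold change divided by the square root of F, and 95% intervals use the t quantile at the fit's total degrees of freedom. These exceed the 2 residual ones because edgeR moderates the variance of each gene with that of all genes. Gene positions and exon lengths came from GENCODE M21 (GRCm38, the assembly of mm10), which held 96.6% of the symbols. The pipeline was tested on simulated data. There, 69% of log2 changes of size 1 and 87% of those of size 2 were called, and 7.7% of the calls were false. The members, lists and tests were chosen with earlier results of these data known. All members are named, and of each Wnt list at most the 3 called genes with the largest change in each direction, apart from Axin2 and from genes named because an alternative lost their call. Alternatives used DESeq2 1.42.0, limma 3.58.1 and other scalings and filters. Replicates within a group differed by more than sampling noise (chi-square per degree of freedom 15.1 and 8.46 on halved counts), so each library counts as 1 sample.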

Additional observations from a re-analysis of the deposited data

How the results depend on the processing

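The 5 antagonists called were called again, in the same direction, under every scaling, filter, tool and left-out library that was run, and with halved counts and the blood list removed. Removal of the blood list leaves the antagonist counts unchanged, so it does not test the part of blood RNA. A test against a 1.5-fold change kept 1 higher antagonist (without Frzb) and left 1035 genes called, 278 higher and 757 lower. Wif1 became a call without a filter on low counts (-0.41, edgeR adjusted p-value 0.0350), with the replicate block (-0.44, adjusted p-value 0.0250) and without anterior replicate 1 (-0.75). Leaving out one library gave 1941 to 3510 calls over all genes, 763 to 1788 higher and 1178 to 1722 lower, against 3351, 1559 and 1792. The lowest counts came without anterior replicate 2, and without anterior replicate 1 there were 980 higher calls. Such fits assume that the lone library varies like the other group. Over them the log2 fold change of Wif1 ranged from -0.75 to -0.14 and that of Dkk3 from -0.34 to 0.0050, positive without central replicate 1, where the order of Dkk2 and Dkk3 also swapped (0 to 2 genes at another place). The Dkk family's share of the central sum was 4.98% by merged exons, 4.76% by the longest transcript and 5.73% in plain CPM, where Dkk1 and Sfrp1 swapped places in anterior cells (2 genes). The replicate block called 3586 genes. Replicate differences of the 2 populations correlated at 0.039 (Pearson) across genes, which are not independent replicates, and the labels name no shared source for equal numbers. For all of these changes the cause was not tested. Depth limits Sfrp4, Sfrp5 and Dkk4.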
